A study of Mus musculus with 4 samples.

Results

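The MAP4K kinases were followed across the cell classes of the postnatal mouse thyroid. The family was taken by name, from 8 gene symbols, of which Map4k6 is a synonym of Mink1, so that 7 genes were found among the 32285 genes of each count matrix: Map4k1, Map4k2, Map4k3, Map4k5, Map4k4, Mink1 and Tnik. Their levels are unique molecular identifiers (UMIs, 1 for each captured RNA molecule) scaled to 1000000 UMIs of the same cells, abbreviated CPM. The kit tags the 3′ end of each RNA, so a transcript's length does not scale these counts, although capture can still differ from gene to gene.

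MAP4K proteins are serine/threonine kinases of the Ste20 group that stand at the entry of mitogen-activated protein kinase cascades, upstream of the kinases that activate JNK. They also phosphorylate the LATS kinases of the Hippo pathway, which hold back the transcriptional coactivator YAP. MAP4K1, MAP4K2, MAP4K3 and MAP4K5 form the branch named after the germinal centre kinase. MAP4K4, MINK1 and TNIK form a second branch with a shared carboxy-terminal domain that binds Rap-type small GTPases, and they act on the cytoskeleton, cell adhesion and migration. The thyroid follicle is a shell of hormone-making follicular cells (TFC) wrapped in capillaries, and the study was about the migration of TFC while follicles form after birth.

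The tissue was whole thyroid of C57 mice, as labelled (C57BL/6 in the study's methods), without any transgene or treatment, digested to single cells at postnatal day 5, 10, 20 or 30. Each age had 1 droplet library made from 10 pooled mice, so no test across ages could be made, and the 4 libraries served as replicates of a cell class only. The matrices held 54921806 to 89039113 UMIs per library. Of 37503 barcodes that the authors took as cells, 29578 passed the filters without an upper limit of UMIs, and 27545 of them fell in 16 classes named by their markers.

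The non-leukocyte classes were TFC-like, C cell-like, parathyroid (PTC)-like, endothelial-like, lymphatic endothelial-like, mural-like, fibroblast-like and Schwann-like cells, and the leukocyte classes were T cell-like, NK cell-like, ILC2-like, B cell-like, dendritic-like, monocyte-like, macrophage-like and neutrophil-like cells. The suffix is left out from here on. Lymphatic endothelial cells were too few in the library labelled day 30, which left 63 sums of class and library. The labelled tissue carried its defining marker: Tg, the precursor of thyroid hormone, stood at 34846 to 67711 CPM in TFC. Several T cell clusters were led by Rag1, Ccr9 or Dntt, which are genes of developing T cells, and the share of T cells was 2.02%, 2.69%, 63.6% and 25.3% (libraries labelled day 5, 10, 20 and 30).

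These measurements stand beside every statement on age. In the cell list the barcode ending 1 matched the library labelled day 30, and the ending 4 matched that labelled day 5, with 99.5% to 99.7% of barcodes holding most of their UMIs in the matched library. H19, an imprinted RNA that is high in fetal tissue and declines after birth, reached 59.4, 813, 123 and 2882 CPM in fibroblasts of the libraries labelled day 5, 10, 20 and 30. The highest level was thus in the library labelled as the oldest, so libraries are called by their label and no order in time is read from them. The study gives more cells for its oldest age than for its youngest. The files list 15297 barcodes as cells of the label day 5 and 6555 of the label day 30, and whether these labels are interchanged was not settled here. Of the cells of the libraries labelled day 10, 20 and 30, 97.4% to 98.8% had their barcode also in each other's matrices, with a median of 8 to 12 UMIs there. Pairs with the library labelled day 5 shared 33.6% to 49.9% of cell barcodes, with a median of 1 UMI.

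Each level of a member was set against droplets of 10 to 100 UMIs, which are taken to hold free RNA of the cell suspension, although 0.606% to 8.18% of their UMIs were in barcodes listed as cells. The levels of partner genes given further below were not set against them. In these droplets Map4k1 stood at 1.71, 2.83, 15.3 and 3.49 CPM (libraries labelled day 5, 10, 20 and 30), and Tnik at 1.37, 1.06, 14.4 and 3.14 CPM. Both were highest in the library labelled day 20, where T cells were most numerous. Map4k4 was the member with most free RNA, at 47.6 to 73.6 CPM.

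**Figure D1:**
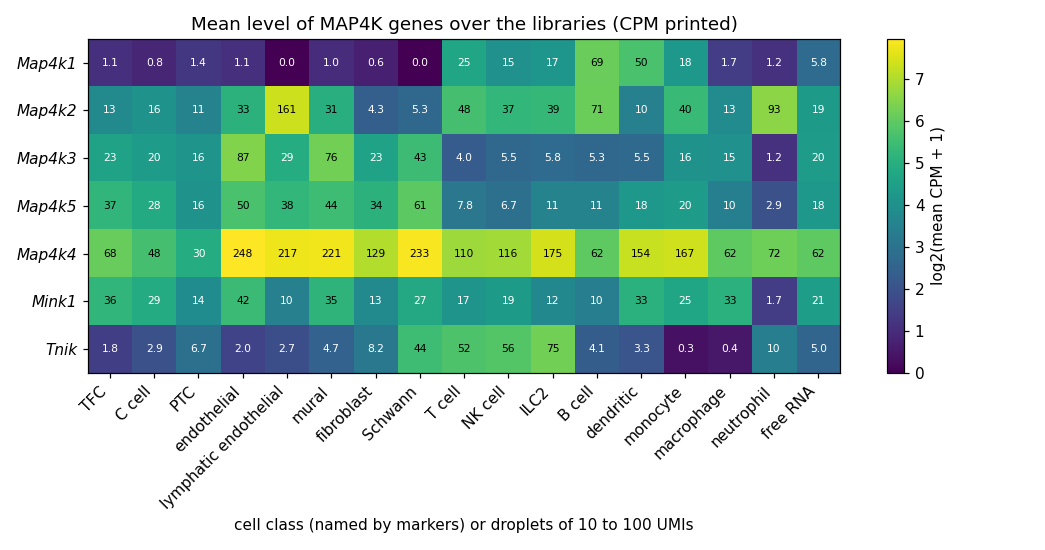
Mean level of the 7 MAP4K genes (rows) in the 16 cell classes and in droplets of 10 to 100 UMIs (columns), averaged over the libraries with equal weight, where colour is log2 of the mean CPM plus 1 and the printed figure is the mean CPM, and Map4k4 is the highest row in most columns, Map4k1 is high from T cells to monocytes and dark elsewhere, and Tnik is high in ILC2, NK cells, T cells and Schwann cells.

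The members differed in where they were detected, and rankings here and below cover the 16 named classes only. Map4k1 was highest in B cells and dendritic cells and was at most 5.79 CPM in the 8 non-leukocyte classes. Map4k3 and Map4k5 were lower in leukocytes as a mean of classes, although single classes overlapped. Macrophages (8.99 to 21.3 CPM) and monocytes (2.58 to 29.6 CPM) reached the Map4k3 levels of PTC, C cells, TFC, fibroblasts and lymphatic endothelial cells, and for Map4k5 monocytes (4.58 to 44.3 CPM) reached those of endothelial and mural cells. Map4k4 had UMIs in every class, though PTC and C cells lay below the free RNA of their library in all 4 libraries. TFC lay below it in the libraries labelled day 5 and day 20 and above it in those labelled day 10 and day 30. Macrophages, B cells and neutrophils also lay below it in some libraries. Tnik was highest in ILC2, NK cells, T cells and Schwann cells.

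MAP4K1, also called HPK1, is a brake on antigen receptor signalling in T and B cells. Its gene Map4k1 lies at chr7:28982050-29003279 on the plus strand of GRCm38. In B cells it stood at 78.0, 54.8, 68.2 and 75.7 CPM (libraries labelled day 5, 10, 20 and 30). In dendritic cells it stood at 45.5, 51.9, 47.2 and 53.7 CPM, and in T cells at 19.03, 30.7, 24.6 and 24.0 CPM. B cells were above dendritic cells in every library, and dendritic cells above T cells. Monocytes (14.8 to 22.9 CPM), ILC2 (9.82 to 28.2 CPM) and NK cells (10.3 to 21.1 CPM) overlapped with one another.

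Among leukocytes, macrophages and neutrophils had the least Map4k1. Macrophages had 0.592 to 3.00 CPM, below monocytes in each library, and neutrophils had 1 UMI in all. With all libraries pooled the exact Poisson interval of neutrophils ended at 10.5 CPM. That is above the lowest values of ILC2 (9.82 CPM) and NK cells (10.3 CPM), so neutrophils cannot be set apart from these classes. TFC had 0.526, 0.934, 1.00 and 1.98 CPM, each below the level of free RNA in its library. Schwann cells had 0 UMIs, as did lymphatic endothelial cells in the 3 libraries summed. With 3 counts as the floor, a single library allows up to 5.68 to 39.5 CPM in Schwann cells. For lymphatic endothelial cells this is 12.3 to 42.3 CPM, and the upper limits of both classes lie above the T cell level. With all libraries pooled, the exact Poisson interval of Schwann cells ended at 2.83 CPM. That of lymphatic endothelial cells ended at 11.3 CPM, from 1 UMI once the library left out of the sums was included. Both ends lie below the lowest T cell level of any library, 19.03 CPM. After every cell was thinned to 2000 UMIs, 9.57% to 17.0% of B cells and 0% to 0.190% of TFC held a Map4k1 UMI.

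The first comparison asked which members differ between the leukocyte classes and the other classes. UMIs summed per class and library were fitted with the quasi-likelihood test of edgeR, with the library as a block, on 13278 genes, and p-values were adjusted over all of them (Benjamini-Hochberg). Of these genes 24.8% were called higher and 34.4% lower in leukocytes at an adjusted p below 0.05, and the median gene stood at -0.27 (log2). Higher calls were 41.9% of all calls, and 26.8% with library sizes alone as the scale. Of the 7 members 3 were called higher (Map4k1, Map4k2 and Map4k4) and 2 lower (Map4k3 and Map4k5), shares of the same order as the background.

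Map4k1 had a log2 fold change of 5.37 ± 0.84 (SE derived from the test statistic, here and below, edgeR adjusted p = 2.2e-07). Because the fold rests on classes with 0 UMIs its size depends on the prior count, and it is no bound. Neutrophils held a single UMI, in the library labelled day 30, and without that library the edgeR test could no longer call the gene (log2 fold change 5.16, adjusted p = 1), and the cause was not tested. Without neutrophils and lymphatic endothelial cells the log2 fold change was 5.33 (edgeR adjusted p = 2.3e-24).

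RefSeq gives 2 starts for Map4k1, and the 250 bases before each are shown for the member with the largest fold change between leukocytes and the other classes, beside those of Map4k3, which ran opposite to it. Sequences are from RefSeq on GRCm38.p6, 5′ to 3′ on the strand of the gene, with capitals for CCGGAA, the core of sites for ETS factors, which was searched on both strands.
Map4k1, first start, chr7:28981800-28982049, plus strand: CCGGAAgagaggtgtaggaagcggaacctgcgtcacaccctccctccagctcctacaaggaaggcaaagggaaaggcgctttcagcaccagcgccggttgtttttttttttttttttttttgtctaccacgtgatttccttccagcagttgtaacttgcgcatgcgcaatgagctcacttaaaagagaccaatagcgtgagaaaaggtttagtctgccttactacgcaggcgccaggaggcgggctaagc
Map4k1, second start, chr7:28982604-28982853, plus strand: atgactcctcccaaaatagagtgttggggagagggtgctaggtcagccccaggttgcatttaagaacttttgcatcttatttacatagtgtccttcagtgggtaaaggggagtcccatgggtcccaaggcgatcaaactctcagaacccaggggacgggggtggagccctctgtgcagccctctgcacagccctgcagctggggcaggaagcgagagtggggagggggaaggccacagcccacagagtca
Map4k3, chr17:80728026-80728275, minus strand: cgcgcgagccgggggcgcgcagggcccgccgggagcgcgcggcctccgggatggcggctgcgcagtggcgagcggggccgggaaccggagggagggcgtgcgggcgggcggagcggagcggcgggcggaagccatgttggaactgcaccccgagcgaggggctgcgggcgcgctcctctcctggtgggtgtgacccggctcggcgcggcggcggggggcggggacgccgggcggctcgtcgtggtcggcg

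The first window of Map4k1 held CCGGAA, as did 12.03% of 32851 RefSeq promoters of that length, and it also held CCAAT (33.85% of promoters) and CACGTG (6.021%). The second window of Map4k1 and the Map4k3 window held none of the 5 motifs searched, which also included TATAAA (12.37%) and TGTGGT (14.05%). The sequence CG occurred 13 times in the first Map4k1 window, 3 times in the second and 45 times in that of Map4k3, against a median of 6 over all promoters. The windows of Mink1, Map4k5 and Map4k2 held 32, 26 and 21. A match is a match of letters and no evidence that a factor binds.

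MAP4K2, the germinal centre kinase itself, acts downstream of TNF receptors. Its gene Map4k2 lies at chr19:6341135-6355615 on the plus strand. The highest level was in lymphatic endothelial cells, with 131, 155 and 198 CPM (libraries labelled day 5, 10 and 20) from 66 UMIs in all. Blood endothelial cells had 24.8, 31.7, 48.9 and 27.9 CPM, so the 2 endothelial classes did not overlap. Neutrophils had 83.8, 129, 0 and 160 CPM, where the 0 comes from 16 shallow cells, and B cells 75.8, 85.0, 51.2 and 71.7 CPM. T cells, monocytes, ILC2 and NK cells ran from 25.8 to 59.9 CPM.

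At the low end of Map4k2 were fibroblasts with 3.44 to 5.66 CPM, Schwann cells with 0 to 10.4 CPM, PTC with 3.65 to 17.4 CPM and TFC with 9.08, 14.1, 15.2 and 12.4 CPM, the latter beside free RNA of 17.8, 14.2, 31.9 and 13.3 CPM. Without the barcodes listed as cells free RNA was 11.6 CPM in the library labelled day 30, so TFC were not below it in every library. Dendritic cells (7.96 to 11.1 CPM) and macrophages (11.8 to 16.3 CPM) lay below the lymphoid classes. Over the classes Map4k2 was higher in leukocytes, with a log2 fold change of 1.41 ± 0.12 (edgeR adjusted p = 3.5e-15). An overlapping gene on the other strand, Gm14966, shares part of the locus.

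MAP4K3, also called GLK, takes part in the sensing of amino acids by mTORC1. Its gene Map4k3 lies at chr17:80580512-80728485 on the minus strand. Endothelial cells had 107, 74.2, 93.9 and 73.5 CPM, and mural cells, the contractile cells around vessels, had 76.0, 78.7, 97.9 and 53.1 CPM, which overlapped. Of the mural cells, 191 fell in a cluster that scored almost as high on endothelial markers (5.50) as on mural ones (5.63) and had 106.9 CPM of Map4k3. The remaining 620 had 29.4 to 51.8 CPM, below endothelial cells in each library, so the overlap rests on that cluster. Schwann cells followed with 25.9 to 54.9 CPM. TFC had 19.1, 25.7, 21.8 and 24.6 CPM, which overlapped with fibroblasts (20.1 to 26.8 CPM) and with free RNA (17.5 to 24.3 CPM). T cells had 1.39 to 5.29 CPM, below free RNA in every library. Map4k3 was lower in leukocytes by a log2 fold change of -2.03 ± 0.18 (edgeR adjusted p = 1.7e-14).

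Within the endothelial class, Map4k3 was highest in a cluster of 346 cells led by Gkn3, Sox17, Sema3g and Gja4, genes of arteries. It reached 163, 145, 167 and 195 CPM there (libraries labelled day 5, 10, 20 and 30). In the cluster led by Fabp4, Vwf and Aqp1 it was 73.0, 54.2, 43.4 and 38.0 CPM, and in the largest cluster, led by Gpihbp1, 115, 84.2, 87.8 and 58.6 CPM. The artery-like cluster was above both in each library. The clusters were made without the members as features, and the cluster was singled out after its values were seen.

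MAP4K5, known as KHS or GCKR, is the closest relative of MAP4K3 in the family. Map4k5 lies at chr12:69803750-69893200 on the minus strand, and Atl1 and 4930512B01Rik overlap it on the other strand. It was highest in Schwann cells (48.1 to 78.9 CPM), endothelial cells (38.9 to 59.0 CPM) and mural cells (36.8 to 51.3 CPM), which overlapped. Lymphatic endothelial cells had 24.5 to 46.4 CPM from 15 UMIs in all. TFC had 26.9, 41.1, 32.1 and 46.7 CPM, above free RNA (16.3 to 19.3 CPM) in each library. T cells had 4.23 to 9.96 CPM and macrophages 8.80 to 10.8 CPM. The log2 fold change in leukocytes was -1.62 ± 0.13 (edgeR adjusted p = 4.9e-16).

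Map4k3 and Map4k5 also had the most alike levels of any pair of members over the 63 sums, with a Pearson r of 0.78 on log2(CPM + 1). The sums share libraries and depth, and the value is a description only. Wwc2, a relative of the KIBRA scaffold of the Hippo pathway, was the gene most like each of them among 9399 genes with a mean of at least 10 CPM, with r of 0.87 for Map4k3 and 0.85 for Map4k5. Rab12 and Klf9 followed for Map4k3, and Lman1 and Vat1 for Map4k5.

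**Figure D2:**
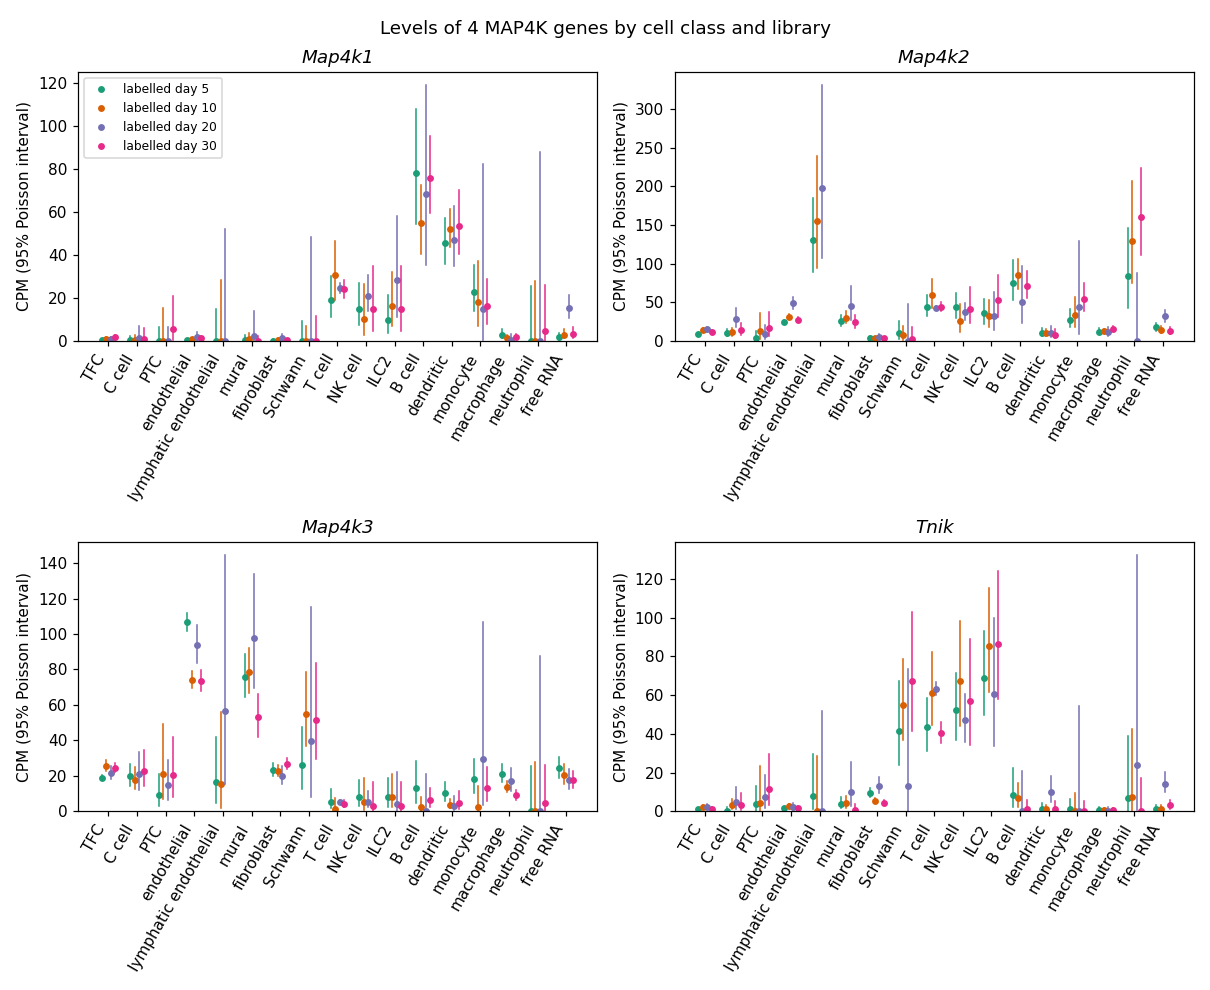
Level of Map4k1, Map4k2, Map4k3 and Tnik in CPM (vertical axes) in each cell class and in free RNA (horizontal axes), 1 point per library with its exact 95% Poisson interval, which covers counting error only. The points of Map4k1 in B cells and dendritic cells lie above 45 CPM in each library and those of the 8 non-leukocyte classes lie below 6 CPM, while Tnik lies above 40 CPM in T cells, NK cells and ILC2.

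MAP4K4 drives the turnover of focal adhesions in migrating cells and acts in vessel formation. Its gene Map4k4 lies at chr1:39900913-40026310 on the plus strand. It was the member with the most UMIs in most classes and took a median of 61.5% of the family's UMIs in fibroblasts, 51.5% in endothelial cells, 41.99% in T cells and 39.04% in TFC. In B cells its median was 25.4%, less than Map4k1 (31.6%) and Map4k2 (30.2%). In the library labelled day 10, though, it took 31.7% there against 21.9% for Map4k1. In neutrophils its median was 35.8% against 56.9% for Map4k2, with the order reversed in the library labelled day 20, from 4 UMIs of the family.

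The level of Map4k4 was 175, 290, 190 and 336 CPM in endothelial cells and 130, 281, 193 and 278 CPM in mural cells of the libraries labelled day 5, 10, 20 and 30. Schwann cells (171 to 282 CPM) and lymphatic endothelial cells (163 to 248 CPM) overlapped with both. TFC had 33.5, 88.2, 59.6 and 91.6 CPM, below each of these classes in every library. Free RNA stood at 47.6, 60.5, 73.6 and 64.9 CPM, so TFC were below it in the libraries labelled day 5 and day 20. In the mural cluster near endothelial cells Map4k4 had 293 CPM. The other mural cells had 83.9, 161, 126 and 225 CPM (libraries labelled day 5, 10, 20 and 30), below endothelial cells and above TFC in each library. PTC had the lowest mean, with 12.8 to 46.3 CPM, and C cells had 29.2 to 58.0 CPM.

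In leukocytes Map4k4 ranged from ILC2 (88.4 to 251 CPM) and monocytes (123 to 196 CPM) to macrophages (44.99 to 70.99 CPM) and B cells (45.5 to 79.4 CPM). The call of Map4k4 as higher in leukocytes rested on a log2 fold change of 0.20 ± 0.08 (edgeR adjusted p = 0.021). It turned to -0.13 with library sizes alone as the scale (adjusted p = 0.12), where the median of all genes also moved from -0.27 to -0.60. It was lost when any 1 of the 4 libraries was left out, with adjusted p from 0.083 to 1. No direction is therefore given for it.

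Dendritic cells fell in 2 clusters that differed in Map4k4. The cluster led by H2-Aa, Plbd1 and Irf8 had 135, 173 and 251 CPM (libraries labelled day 5, 10 and 20). The cluster led by Cd209a, Retnla and Mgl2 had 55.6, 119 and 127 CPM, lower in each. The second cluster also scored close to macrophages on their markers, and macrophages had less Map4k4 than either cluster in the same library.

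MINK1 is a relative of MAP4K4 that acts with Rap2 in the shaping of neurons and in platelets. Its gene Mink1 lies at chr11:70562881-70614483 on the plus strand, and Gm12316 overlaps it on the other strand. In free RNA Mink1 stood at 18.8 to 22.9 CPM. Endothelial cells had 47.8, 37.5, 45.9 and 35.2 CPM, TFC 30.9, 42.1, 29.2 and 43.1 CPM and mural cells 28.8 to 40.4 CPM, which overlapped. Dendritic cells (29.0 to 36.8 CPM) and macrophages (28.7 to 38.7 CPM) overlapped with these, and Mink1 took a median of 23.4% of the family's UMIs in macrophages. B cells (4.09 to 15.2 CPM) and fibroblasts (11.9 to 15.002 CPM) were low, neutrophils held 1 UMI and lymphatic endothelial cells 4. Its log2 fold change in leukocytes was -0.33 ± 0.19, which did not pass (edgeR adjusted p = 0.14).

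TNIK binds the effector TCF7L2 of the Wnt pathway and links Rap2 to the cytoskeleton. Its gene Tnik lies at chr3:28263214-28675858 on the plus strand. ILC2 had 68.7, 85.3, 60.4 and 86.5 CPM, NK cells 52.2, 67.2, 47.0 and 57.1 CPM and T cells 43.4, 61.3, 63.4 and 40.4 CPM, and the 3 classes overlapped. The NK cell cluster scored 5.57 on NK cell and 5.42 on T cell markers, and without integration the cluster with their leading genes stayed unnamed, so NK cells and T cells are not fully apart here. Schwann cells had 41.5, 54.9, 13.2 and 67.4 CPM, where the value of 13.2 is 1 library of 25 cells. Fibroblasts had 4.34 to 13.2 CPM.

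In the other leukocyte classes Tnik rested on few UMIs. Neutrophils had 0 to 23.8 CPM from 3 UMIs in all and dendritic cells 0.995 to 9.84 CPM. Macrophages had 0 to 0.60 CPM, monocytes held 1 UMI in all, and B cells had 0 to 8.66 CPM. TFC had 1.09, 2.18, 2.44 and 1.40 CPM and endothelial cells 1.62 to 2.54 CPM. The comparison of leukocytes with the other classes gave a log2 fold change of 0.79 ± 0.39, which did not pass (edgeR adjusted p = 0.082).

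The comparison of T cells with the mean of the other leukocyte classes called Tnik and Map4k1 higher and no member lower, where 33.4% of genes were called higher and 15% lower and the median gene stood at 0.27. Tnik had a log2 fold change of 3.26 ± 0.28 (edgeR adjusted p = 3.4e-14), and its value stayed between 40.4 and 63.4 CPM in all 4 libraries. The mean it was compared with includes macrophages and monocytes, which held few Tnik UMIs. It also includes ILC2 and NK cells, which both had more Tnik than T cells in every library except that labelled day 20. Map4k1 had 0.82 ± 0.27 (edgeR adjusted p = 0.0093). That call was lost without neutrophils and lymphatic endothelial cells, at 0.44 (edgeR adjusted p = 0.11), and without the library labelled day 10, at 0.70 (adjusted p = 0.089). Of the other members none passed, with log2 fold changes from -0.56 for Map4k3 to 0.36 for Map4k2, and 0 members were called lower by edgeR (0 at an unadjusted p under 0.05) or by DESeq2.

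**Figure D3:**
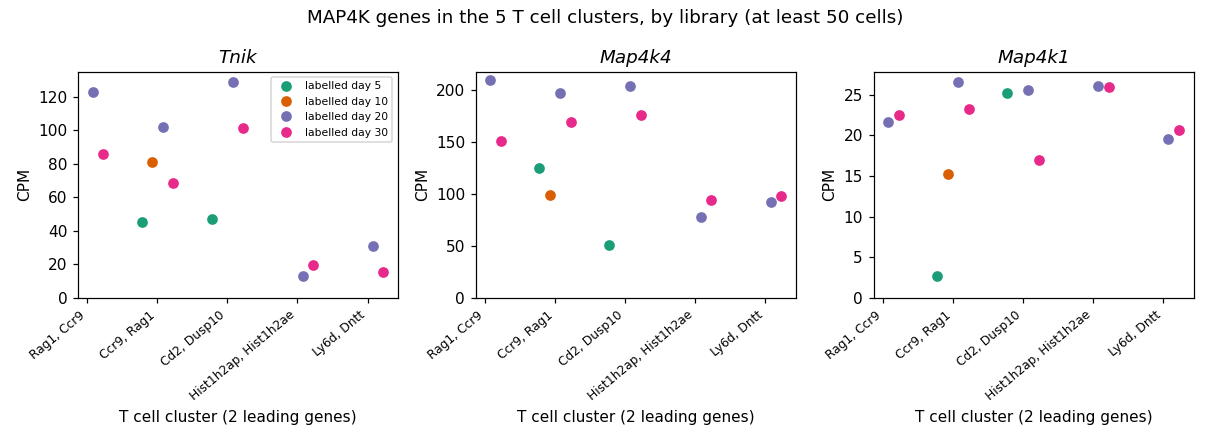
Tnik, Map4k4 and Map4k1 in CPM (vertical axes) in the 5 T cell clusters, each named by its 2 leading genes (horizontal axes), with 1 point per library that had at least 50 cells in the cluster. In the libraries labelled day 20 and day 30 Tnik lies above 65 CPM in the clusters led by Rag1, Ccr9 or Cd2 and below 35 CPM in those led by histone genes or by Ly6d and Dntt, while Map4k1 lies between 15 and 30 CPM in all of these points.

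Inside the T cell class the level of Tnik differed among clusters. In the library labelled day 20 it had 123 CPM in the cluster led by Rag1, 102 CPM in that led by Ccr9 and 129 CPM in that led by Cd2, Lef1 and Ccr7, the last being genes of more mature T cells. In the same library it had 13 CPM in the cluster of dividing cells led by histone genes and Top2a, and 31.0 CPM in that led by Ly6d and Dntt. The library labelled day 30 gave 85.7, 68.3 and 102 CPM against 19.5 and 15.5 CPM, in the same split. The library labelled day 5 had less Tnik, with 45.2 CPM in 127 cells of the cluster led by Ccr9 and 47.3 CPM in 87 cells of that led by Cd2. Without integration the cluster led by Rag1 and Ccr9 held 0 cells of the library labelled day 5, against 2593 of that labelled day 20. Cells labelled day 5 may therefore not be of the same kind as the other cells of their cluster. Map4k4 split the same clusters, with 197 to 210 CPM against 77.4 and 92.2 CPM in the library labelled day 20. With the libraries pooled, Map4k2 had 55.3 to 73.9 CPM in the clusters led by Rag1, Ccr9 or Cd2 against 26.9 and 24.4 CPM. Mink1 had 18.95 to 22.4 against 11.3 and 7.48 CPM. Map4k3 had 7.26 to 8.05 against 2.61 and 1.95 CPM, and Map4k5 5.1 to 30.5 against 2.96 and 3.9 CPM. The median cell held 1890 to 4469 UMIs in the former clusters and 10470 and 5402 UMIs in the latter. The part of depth in this split was not tested. Map4k1 had 21.1 to 26.5 CPM in the 5 clusters with the libraries pooled, though 2.66 CPM, from 1 UMI, in the Ccr9 cluster of the library labelled day 5. An unnamed cluster led by Trdc, Cd163l1 and Il17a, genes of gamma delta T cells, had 79.7 CPM of Tnik.

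The second comparison asked how TFC differ from the other 7 non-leukocyte classes, among which 29.2% of genes were called higher and 12.8% lower in TFC and the median gene stood at 0.13. Higher calls were 69.5% of all calls, and 57.9% with DESeq2. Of the members 1 was called higher and 4 lower. Mink1 was higher, with a log2 fold change of 0.83 ± 0.17 (edgeR adjusted p = 5.3e-05). Map4k4 was lower, with -0.91 ± 0.15 (edgeR adjusted p = 1.1e-06), and stayed so in each alternative run. That holds against the mean of the 7 classes and not against each of them. In each library TFC had more Map4k4 than C cells (29.2, 58.0, 55.3 and 48.6 CPM) and PTC (12.8, 21.1, 38.3 and 46.3 CPM, libraries labelled day 5, 10, 20 and 30). Map4k4 was still the member with most UMIs in TFC, and the Mink1 level of TFC overlapped with that of endothelial cells. Map4k4, Map4k5 and Mink1 took medians of 39.0%, 20.5% and 19.5% of the family's UMIs in TFC.

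Tnik was lower in TFC by a log2 fold change of -1.73 ± 0.40 (edgeR adjusted p = 3.2e-04). Without the library labelled day 5, where lymphatic endothelial cells had the only Tnik UMIs of their class among the 3 libraries summed, the value was -0.70 with an adjusted p of 1, and without neutrophils and lymphatic endothelial cells it was -1.96 (edgeR adjusted p = 8.0e-07). Map4k3 (-0.50 ± 0.20, edgeR adjusted p = 0.036) and Map4k2 (-0.49 ± 0.21, edgeR adjusted p = 0.049) passed narrowly, and Map4k2 turned to 0.10 (adjusted p = 0.84) with 12% of doublet scores removed. Each lost its call when the library labelled day 10 or day 30 was left out, Map4k2 also without that labelled day 5 and Map4k3 also without that labelled day 20, and both without the clusters near a second class, such as the mural one above (edgeR adjusted p = 0.053 and 0.086). Map4k5 had 0.08 ± 0.15 (edgeR adjusted p = 0.79), and Map4k1 had 1.63 ± 0.76 (edgeR adjusted p = 0.083) from levels below free RNA.

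The third comparison set endothelial cells against the other 7 non-leukocyte classes, where 25% of genes were called higher and 12.7% lower and the median gene stood at 0.11. Of the members 5 were called higher and 1 lower. The largest was Map4k3 with 1.60 ± 0.17 (edgeR adjusted p = 1.3e-11), followed by Map4k4 with 1.20 ± 0.13 (edgeR adjusted p = 1.3e-11). Map4k2 and Mink1 had 1.00 ± 0.19 and 0.96 ± 0.17 (edgeR adjusted p = 1.4e-05 and 5.2e-06), and Map4k5 had 0.53 ± 0.15 (edgeR adjusted p = 0.0039), lost without the library labelled day 30 at 0.31 (adjusted p = 0.18). Tnik was lower by -1.49 ± 0.39 (edgeR adjusted p = 0.0016), which also was lost without the library labelled day 5, at -0.54 (adjusted p = 1). TFC entered this comparison as 1 of the 7 classes, and the 2 comparisons share the remaining 6.

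**Figure D4:**
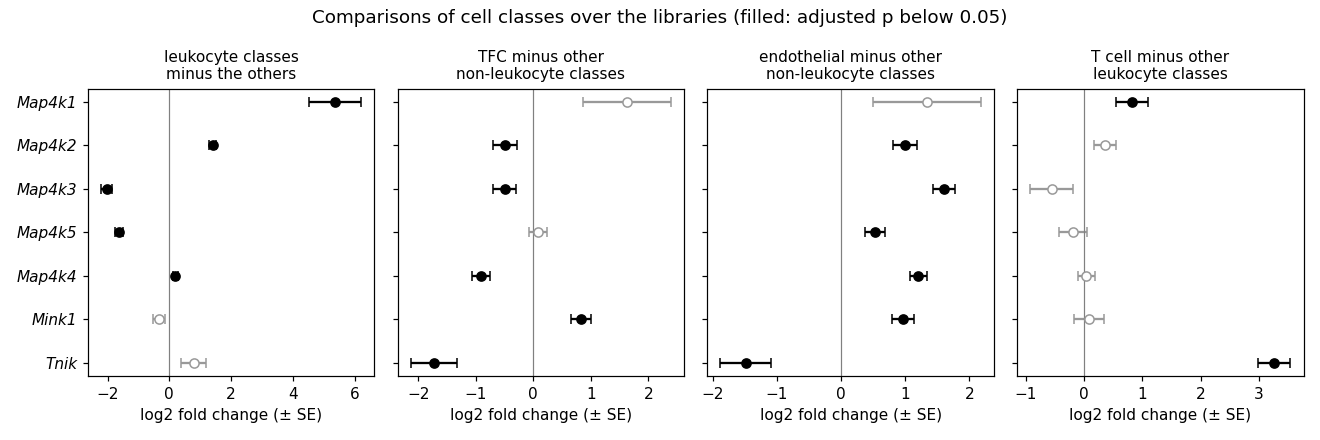
Log2 fold change ± SE of the 7 members (rows) in the 4 comparisons of cell classes (panels), from the edgeR fit on summed UMIs with the library as a block, where filled points have an adjusted p below 0.05 and open points do not. In the endothelial panel 5 members lie above 0 with filled points, and Mink1 alone does so in the TFC panel.

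The share of free RNA in TFC was bounded with markers of other cells. The summed endothelial markers, 7 of 7 detected, stood in TFC at 15.2%, 14.4%, 23.6% and 10.3% of their level in free RNA in the libraries labelled day 5, 10, 20 and 30, more than T cell, fibroblast or macrophage markers. At these shares free RNA would give 7.23, 8.72, 17.4 and 6.68 CPM of Map4k4, which is 21.6%, 9.88%, 29.1% and 7.29% of the level in TFC. For Mink1 the same bound was 4.67% to 18.5% of the level and for Map4k5 3.85% to 14.2%. In the library labelled day 20 the bound exceeded the TFC level of both Map4k1 and Tnik.

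With 1 library per age the ratios between ages are descriptions, with exact intervals for counting error only. In TFC Map4k4 was higher in the library labelled day 30 than in that labelled day 5 by a log2 ratio of 1.45 (95% interval 1.33 to 1.57, from 1436 and 955 UMIs). The library labelled day 10 was higher than day 5 by 1.40 and that labelled day 20 by 0.83, so the level did not follow the order of the labels. The share of TFC with a Map4k4 UMI, with all cells thinned to 2000 UMIs, was 6.45%, 16%, 9.12% and 14.6% in the libraries labelled day 5, 10, 20 and 30, against 29.1%, 54.4%, 54.3% and 64.7% before thinning.

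The difference was also seen inside the TFC clusters. In the cluster led by Tg and Folr1 Map4k4 had 31.4, 80.2, 55.6 and 78.3 CPM, and in that led by Gem, Grp and Krt18 it had 35.4, 85.6, 62.6 and 95.5 CPM. A small cluster of dividing TFC led by Cenpf and Mki67 had 50.4, 139 and 156 CPM of Map4k4 in 16, 38 and 31 cells (libraries labelled day 5, 10 and 30), above both in each, though from 13 UMIs in the first.

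All 7 members had a higher level in TFC of the library labelled day 30 than in those of the library labelled day 5. Of the members 6 were beyond counting error. Of 8699 genes with a mean of at least 10 CPM in the pair, 57.4% were higher beyond counting error and 19.9% lower. Map4k1 and Tnik lay below that mean and are not among these genes. Past a 2-fold difference were Map4k4 and Map4k1, the latter from 31 and 15 UMIs, where 5.39% of genes were past 2-fold higher and 1.48% lower. The median log2 ratio of the members was 0.48 and that of the 8699 genes 0.24. Map4k5 had 0.80, Mink1 0.48, Map4k2 0.46, Map4k3 0.37 and Tnik 0.38, the last within counting error.

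Depth differed between these libraries. The median TFC of the libraries labelled day 10 and day 20 held 11440 and 14790 UMIs. The median TFC of the libraries labelled day 5 and day 30 held 8914 and 16560 UMIs, and 43.4% and 74.7% of their TFC lay above 10000 UMIs. Among TFC of at most 10000 UMIs, 1353 and 143 cells, the log2 ratio of Map4k4 was 1.15, while those of Map4k5, Map4k3, Mink1 and Map4k2 turned to -1.23, -0.86, -0.33 and -0.12, from 17 or fewer UMIs each in the library labelled day 30, and the median of the members turned to -0.12. No direction is therefore given for those 4 members over age in TFC. The part of depth in the ratios was not tested.

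**Figure D5:**
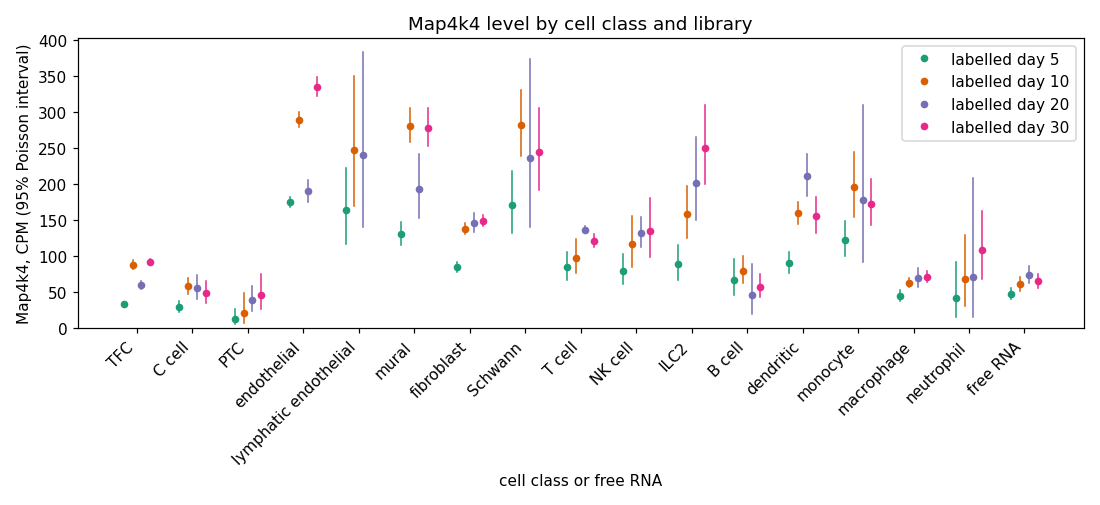
Map4k4 level in CPM (vertical axis) in each cell class and in free RNA (horizontal axis), 1 point per library with its exact 95% Poisson interval for counting error. The library labelled day 5 is the lowest point in 15 of 16 classes, and TFC lie well below endothelial, mural and Schwann cells in every library.

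The lower level of Map4k4 in the library labelled day 5 was not limited to TFC. That library was the lowest in 15 of 16 classes, the exception being B cells, and 0.553% of the 9399 genes with a mean of at least 10 CPM were lowest there in at least 15 classes. It also had the lowest median of UMIs per cell in 13 of the 16 classes, and the part of depth was not tested. For the library labelled day 30 against day 5, Map4k4 was higher beyond counting error in 14 of 15 classes, with a median log2 ratio of 0.79 over the classes, from -0.24 in B cells to 1.80 in PTC. In endothelial cells it was 0.94 (95% interval 0.86 to 1.02), in fibroblasts 0.82, in macrophages 0.66 and in T cells 0.51. Free RNA also was lowest there, at 47.6 CPM. The classes share the libraries and are not independent. The other members were lowest in that library in fewer classes, Map4k5 in 9 of 16, Map4k1 in 7, Map4k2 in 6, Tnik in 4, Map4k3 in 3 and Mink1 in 0.

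Outside TFC the ratio between the libraries labelled day 30 and day 5 differed in direction among members. In endothelial cells, beyond counting error, Map4k4 and Map4k5 (0.60) were higher in the library labelled day 30 and Map4k3 (-0.54) and Mink1 (-0.44) were lower, where 39.9% of genes were higher and 25.8% lower. Macrophages had Map4k4 higher and Map4k3 and Mink1 lower, where 50.5% of genes were higher and 14.6% lower. T cells had Map4k4 higher and Mink1 lower, where 42.1% were higher and 16.7% lower. Fibroblasts had Map4k4 higher and Tnik lower, where 37.6% were higher and 23% lower. These hold for that pair of libraries. Against day 5 the library labelled day 20 had Tnik at 0.45 in fibroblasts and Map4k4 at 0.12 and Mink1 at -0.05 in endothelial cells, each within counting error. Past a 2-fold difference, higher or lower, were 4.56% and 3.65% of genes in endothelial cells, 4.53% and 3.99% in fibroblasts, 11.1% and 5.66% in macrophages and 22.1% and 9.84% in T cells, and of the members Tnik was lower in fibroblasts and Map4k3 in macrophages. Map4k1 was past 2-fold higher in endothelial cells, within counting error, from 10 and 8 UMIs. The shares of genes cover those with a mean of at least 10 CPM in the pair. Tnik in fibroblasts and Map4k1 in endothelial cells lay below that mean.

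Other measurements differed between these libraries too. The median cell of the libraries labelled day 5 and day 30 held 2252 and 6993 UMIs in endothelial cells, 4203 and 13525 in fibroblasts, and 3447 and 10896 in macrophages. The 9 TFC markers summed to 5722 and 335 CPM in endothelial cells, which is 40.3% and 3.54% of their level in free RNA, and an endothelial cluster that also scored close to TFC had 192 and 0 cells. Inside the endothelial cluster led by Gpihbp1, Map4k4 had 173 and 316 CPM, Map4k5 39.0 and 53.1 CPM, Map4k3 115 and 58.6 CPM and Mink1 51.5 and 20.4 CPM (libraries labelled day 5 and 30). That led by Esm1 gave 205 and 350 CPM of Map4k4, 43.0 and 63.4 CPM of Map4k5, 114 and 73.8 CPM of Map4k3 and 49.5 and 38.0 CPM of Mink1. All 4 members thus differed in the same direction inside both clusters as in the class.

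The makeup of the T cells differed as well, since the cluster of dividing cells held 24 of 262 and 296 of 1221 T cells (libraries labelled day 5 and 30). Without integration the cluster led by Rag1 and that led by histone genes each held 0 cells of the library labelled day 5. They held 772 and 355 cells of that labelled day 30. The clusters compared next may therefore not hold the same kind of cell in both libraries. Mink1 had 21.3 and 15.8 CPM in the cluster led by Ccr9 and 25.2 and 10.2 CPM in that led by Cd2, from 3 to 21 UMIs each. Map4k4 had 125 and 170 CPM in the first and 50.4 and 176 CPM in the second. The part of depth, TFC RNA and cell makeup in these ratios was not tested.

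Genes that work with the kinases were taken as lists, whose counts stand beside the shares of all genes called higher and lower, 24.8% and 34.4% in leukocytes, 29.2% and 12.8% in TFC and 25% and 12.7% in endothelial cells. Of 17 leukocyte signalling partners of MAP4K1, 14 were called higher and 2 lower in leukocytes, with a median log2 fold change of 3.61 against -0.27 for all genes. The list was chosen from leukocyte signalling, so a high count in leukocytes was largely set in advance and is a description only. Vav1, a signalling protein of blood cells, had 8.01 ± 0.27, Lcp2, the adaptor that brings MAP4K1 to the T cell receptor, 6.34 ± 0.72, the kinase Syk 5.59 ± 0.38 and the adaptor Grap2 5.54 ± 0.62 (edgeR adjusted p of at most 4.5e-11 for each). Lcp2 lay at 68.3 to 103 CPM in T cells and 0 to 5.68 CPM in B cells, which instead had 154 to 239 CPM of the related adaptor Blnk.

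Of the same list, Blnk had 10.0 to 12.6 CPM and Plcg2, a phospholipase, 7.78 to 9.75 CPM in TFC, and both were called higher than in the other non-leukocyte classes, at 3.16 ± 0.52 and 3.46 ± 0.60 (edgeR adjusted p = 9.5e-07 and 3.2e-06). That comparison is with a mean that includes classes with 0 UMIs. Blnk in PTC (9.13 to 31.8 CPM) overlapped with TFC, as did Plcg2 in endothelial cells (3.15 to 12.01 CPM) and mural cells (up to 37.7 CPM). In all 3 of the 17 were called higher and 2 lower in TFC, both shares near those of all genes, and 7 were called higher in endothelial cells.

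Of 22 genes of the Hippo pathway tested, 15 were called lower and 4 higher in leukocytes, with a median of -2.59. The coactivator Yap1 had -5.58 ± 0.24 and its DNA-binding partners Tead1 and Tead3 had -5.86 ± 0.22 and -5.61 ± 0.58, with the scaffold Amotl2 at -4.81 ± 0.22 (edgeR adjusted p of at most 2.4e-11 for each). In TFC 6 were higher and 5 lower, led by Wwc1, the KIBRA scaffold, at 5.36 ± 0.33 (edgeR adjusted p = 6.7e-19) with 75.4 to 166 CPM in TFC and 1.51 to 9.64 CPM in endothelial cells. Frmd6 (-1.71 ± 0.22) and Amotl1 (-1.44 ± 0.27) were lower in TFC and the YAP target Ccn2 higher (1.77 ± 0.32).

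Of 22 genes of the JNK cascade 8 were higher and 5 lower in leukocytes, with Map3k1 at 1.25 ± 0.09, Dusp10, a phosphatase of JNK and p38, at 3.11 ± 0.84, Mapk8ip1, a scaffold, at -2.63 ± 0.33 and Map3k10 at -1.79 ± 0.23. In TFC 4 were higher, among them Map3k5 (1.52 ± 0.21), Dusp16 (0.87 ± 0.21) and Jun (0.75 ± 0.22), and 3 lower, among them Spag9 (-0.85 ± 0.14). All of these had an edgeR adjusted p of at most 0.0050.

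Partners of MAP4K4, MINK1 and TNIK in motility and adhesion made up a list of 19 genes, of which 13 were higher and 1 lower in endothelial cells, with a median of 0.67, while in TFC 4 were higher and 10 lower, with a median of -0.52. Ezr, the ezrin of the apical membrane, was among the 4 higher in TFC, with 3.35 ± 0.20 and 339 to 625 CPM against 24.6 to 83.7 CPM in endothelial cells. The adaptor Nck2 was higher too (1.49 ± 0.20), and Rap2a (-1.86 ± 0.23) and Mapre2, which binds MAP4K4 to microtubule ends (-1.33 ± 0.14), were lower (edgeR adjusted p of at most 8.9e-09 for each). In leukocytes 6 were higher and 10 lower, with Msn (1.48 ± 0.07), Ezr (1.77 ± 0.14) and Rap2c (1.502 ± 0.11) higher and the ubiquitin ligase Nedd4 lower (-3.25 ± 0.11).

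STRIPAK, the phosphatase complex that holds MAP4K4-type kinases in check, had 5 of 15 genes higher and 6 lower in leukocytes. Traf3ip3, a subunit of lymphocytes, had 6.07 ± 0.24 and Cttnbp2nl -1.95 ± 0.21, and the catalytic subunits Ppp2ca and Ppp2cb had 1.08 ± 0.07 and 0.64 ± 0.08. In TFC 1 was higher, Ppp2r1a at 0.51 ± 0.12, and 2 lower, Cttnbp2nl at -1.44 ± 0.22 and Pdcd10 at -0.29 ± 0.11. In endothelial cells 7 were higher.

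Of 16 other Ste20 kinases of the germinal centre type, 6 were higher and 6 lower in leukocytes, and Stk10, which acts on lymphocyte adhesion, had the largest fold change at 4.73 ± 0.18. Stk26 (3.32 ± 0.30), Stk4, the MST1 kinase of the Hippo pathway (2.65 ± 0.08), and Stk24 (2.21 ± 0.07) were higher as well. In TFC 6 were higher and 2 lower. Myo3b, a kinase fused to a myosin motor, was higher at 4.53 ± 0.48 with 10.7 to 24.4 CPM in TFC and 0 to 2.36 CPM in endothelial cells, Stk26 and Stradb were higher (1.92 ± 0.47 and 1.02 ± 0.21), and Stk24 was lower (-0.76 ± 0.13). All had an edgeR adjusted p of at most 0.00058.

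The remaining members had these genes as the most alike in level over the 63 sums. Gpr171, a receptor of lymphoid cells, followed Map4k1 with r of 0.87, ahead of Ifi209 and Sub1. Ywhab, a 14-3-3 protein, followed Map4k4 with 0.81, ahead of Golga7 and Cast. Ncoa7 followed Mink1 with 0.80, ahead of Plekhm2 and Hsd17b12, and Klk8 followed Tnik with 0.75, ahead of Sytl3 and Mllt3. Smg1, a kinase of RNA decay, followed Map4k2 with 0.72, ahead of Ccdc88c and AI467606. Nothing on shared function or control follows from these values.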

How the data were processed

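Thyroids of C57 mice, as labelled (C57BL/6 in the methods), were digested with collagenase and dispase and run on droplets as 4 libraries, each of 10 pooled mice per the methods. The authors deposited raw counts of UMIs per gene and barcode for every barcode, made with CellRanger on mm10, and a list of cell barcodes. The submitters' processing notes name Seurat 3.6.3 and 3.1.4.

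Barcodes of the list were given to the library that held most of their UMIs. Cells with at least 200 UMIs, at most 10% mitochondrial and 5% haemoglobin UMIs were kept, with no upper limit, and the 6% with the highest doublet scores (Scrublet, run in scanpy 1.11.5) were left out. Cells were clustered in Seurat 5.3.0 on R 4.3.3 after integration with sctransform 0.4.2, without the members and listed genes among the 2974 features (30 components, resolution 0.9). Clusters were named from marker lists, and 2033 cells in 4 clusters stayed unnamed. Raw counts were summed per class and library with at least 10 cells, normalised by TMM, and tested with edgeR 4.0.16 (quasi-likelihood, library as a block, Benjamini-Hochberg over 13278 genes). The 4 libraries are replicates of a class and not of an age, and each holds pooled mice. The p-values rest on the spread of class sums that is left after the library block. For each gene that spread is 1 estimate shared by all classes. It includes differences between the ages and does not measure the spread between single mice. The SE beside an edgeR fold change was taken as the absolute log2 fold change over the square root of the F statistic of the test. The test itself returns no SE, and the value is only approximate where classes held no UMIs. DESeq2 1.42.0 was an alternative. Intervals are exact and cover counting error only. Cells were thinned to 2000 UMIs for shares, where shallower cells were left out. On simulated data for the TFC comparison, with 13278 genes, edgeR recovered 66.3% of 2-fold and 100% of 4-fold changes among genes that passed the filter, with 5 false calls. The simulation had changed genes in TFC only, no library effect and a fixed dispersion for all genes. Its figures therefore do not carry over to the real comparisons.

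The named genes were the 7 members, up to 4 genes per list with the largest fold change past an adjusted p of 0.05 in leukocytes or TFC, and the 3 genes most like each member among those with a mean of at least 10 CPM. The members and lists were chosen with earlier results of these data known. Positions are from the GENCODE annotation of GRCm38.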

Additional observations from a re-analysis of the deposited data

How the results depend on the processing

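There is 1 library per age, class names are rebuilt from markers, and depth and class size limit these results. No paired analysis was possible because each age has 1 library and the labels give no replicate numbers, while the library entered the comparisons of classes as a block. Of the counts and age ratios under an alternative, 65 were taken as kept, 11 counts fell by more than a set margin, 5 ratios moved and 1 was reversed. A count of members called was taken as kept despite a small relative change, as in the endothelial counts below. The direction of the calls in a count was not compared. A ratio was taken as kept if it stayed inside the counting error of the main ratio. Of the single members over age, 41 values stayed within counting error, 9 moved and 4 were reversed. Of the single members in the tests, 379 values kept their direction and side of the threshold, 37 lost and 14 gained a call, and 18 were reversed. The causes were not tested. Leaving out neutrophils and lymphatic endothelial cells, and leaving out clusters near a second class, were chosen after seeing the data. The NK cell cluster, which scored almost as high on T cell markers, was exempted from the second of these runs and kept.

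For leukocytes 5 members were called, 3 with cells thinned to 2000 UMIs and 3 to 5 with each library left out in turn. For TFC 5 were called, and 3 without the low-count filter, without the library block, with at most 10000 UMIs per cell, with thinned cells or without clusters near a second class, and 3 to 4 with each library left out. For endothelial cells 6 were called and 5 to 6 with each library left out. For T cells 2 were called and 1 to 3 with each library left out, 1 without the library labelled day 10.

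The log2 fold change of Map4k4 in leukocytes was -0.13 with library sizes only, -0.00048 with at most 5% mitochondrial UMIs and -0.0073 (without the library labelled day 30) to 0.19 with each library left out. Tnik in leukocytes was -0.052 with 12% of doublet scores removed and -0.84 with thinned cells. Map4k5 in TFC was -0.18 with at most 10000 UMIs, -0.054 with at most 5% mitochondrial UMIs, -0.13 without integration, -0.088 without neutrophils and lymphatic endothelial cells and -0.048 (without the library labelled day 30) to 0.15 with each library left out, and Map4k2 in TFC was 0.10 with 12% of doublet scores removed. In T cells Map4k5 was 0.30 with at most 10000 UMIs and 0.91 with thinned cells, Map4k3 0.45 with thinned cells and -0.75 to 0.25 (without the library labelled day 30) with each library left out, Map4k4 -0.083 and Mink1 -0.065 with at most 5% mitochondrial UMIs, and Mink1 -0.31 without neutrophils and lymphatic endothelial cells.

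The log2 ratio of Map4k4 in TFC between the libraries labelled day 30 and day 5 was 1.45, and 1.15 with at most 10000 UMIs, 1.24 without integration, 1.31 with thinned cells and 1.23 with cells weighted equally. The median of the members was 0.48, and 0.74 with thinned cells and -0.12 with at most 10000 UMIs, where Map4k2 had -0.12, Map4k3 -0.86, Map4k5 -1.23 and Mink1 -0.33.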

Other observations

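Of the 4 unnamed clusters, that led by Trdc, Cd163l1 and Il17a held 476 cells, and 336 of them were in the library labelled day 5. Tnik stood there at 72.8, 94.7 and 96.6 CPM (libraries labelled day 5, 10 and 20), and Map4k1 at 9.98, 12.9 and 25.8 CPM. The cluster led by Bpifa1 and Scgb3a2, genes of airway epithelium, held 1041 cells and 29.5, 47.5, 31.9 and 35.8 CPM of Map4k4 (libraries labelled day 5, 10, 20 and 30). A shallow cluster led by Gm26917 and Ccnb1ip1 scored highest on T cell markers and held 202 cells, with a median of 624.5 UMIs. With the libraries pooled it had 115 CPM of Map4k1, 258 of Map4k2, 305 of Map4k4 and 156 of Tnik, from 17, 38, 45 and 23 UMIs. These levels lay above those of every named cluster, and the cause was not tested.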
